A study of Rattus norvegicus with 6 samples.

Results

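RAS-transformed ROSEA25 cells given a control siRNA were compared with untransformed ROSE199 cells on 1 spotted array that carried both RNAs in different dyes. All 293 named features of that array were described, out of 311 features on the array. The other 18 features are unnamed clones and were counted apart. A feature is a probe name of the array, and its value is the mean over its replicate spots with blank spots left out. ROSE199 is a cell line derived from rat ovarian surface epithelium, the single cell layer that covers the ovary. ROSEA25 was taken as its RAS-transformed derivative, because the transfection protocol speaks of ROSE-RAS cells. The study set 5 other arrays beside this one, each also hybridised against untreated ROSE199 RNA: ROSE199 with an empty vector (1 array), ROSE199 with an HMGA2 expression plasmid (2 arrays), both under selection with blasticidin at 10 µg/ml, and ROSEA25 with siRNA against HMGA2 (2 arrays).

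The ROSEA25 cells of this comparison received siEGFP, an siRNA duplex against a fluorescent protein gene, at 0.2 µM in doses 24 h apart, and were taken 48 h after the first dose. The ROSE199 cells were untreated. Both were grown in 10% serum, and 20 µg of total RNA was labelled from each. The siEGFP RNA was in Cy5 and the ROSE199 RNA in Cy3. Neither side has a second culture, so each difference is between single RNA samples and no p-value is given. RAS transformation, the derivation of the ROSEA25 line and the siRNA transfection all differ between the 2 channels and cannot be told apart. How RAS was introduced and whether ROSEA25 is 1 clone are not given in the sources used here. In bulk RNA, fewer cells of a type and less RNA per cell cannot be told apart either.

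RAS proteins are small GTPases that pass growth factor signals to the RAF, MEK and ERK kinases. ERK activity raises the transcription of early response genes, among them AP-1 subunits, and of feedback inhibitors such as Sprouty proteins and dual-specificity phosphatases. Cells transformed by RAS are known for loss of matrix, contractile and epithelial gene expression and for release of matrix metalloproteinases and growth factors.

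Promoter sequence is shown for 5 genes that stood near the ends of the ranking and belong to families with well-known promoter elements. Each line gives the 250 bases before the annotated start from RefSeq (build GRCr8), 5′ to 3′ on the gene's own strand, with the motif in capitals. For MMP10 (Mmp10, chr8:12974457-12974706, plus strand) and MMP-3 (Mmp3, chr8:12925031-12925280, plus strand), both higher in ROSEA25, the capitals mark the AP-1 motif TGANTCA.
Mmp10: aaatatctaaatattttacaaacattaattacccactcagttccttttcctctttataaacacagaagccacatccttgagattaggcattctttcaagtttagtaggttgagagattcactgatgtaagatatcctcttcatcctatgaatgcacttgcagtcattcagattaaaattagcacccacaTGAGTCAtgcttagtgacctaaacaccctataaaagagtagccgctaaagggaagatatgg
Mmp3: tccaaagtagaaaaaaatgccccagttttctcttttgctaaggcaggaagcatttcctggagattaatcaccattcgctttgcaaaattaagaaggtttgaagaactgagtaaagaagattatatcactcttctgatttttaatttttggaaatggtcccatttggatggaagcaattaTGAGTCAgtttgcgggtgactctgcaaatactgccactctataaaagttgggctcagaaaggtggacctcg
The AP-1 motif began 61 bases before the start in Mmp10 (position -61) and at position -71 in Mmp3. For Cpg21 (Dusp5, chr1:262543524-262543773, plus strand), also higher in ROSEA25, the capitals mark 2 adjoining CArG boxes, the element bound by serum response factor, at positions -82 and -72.
Dusp5: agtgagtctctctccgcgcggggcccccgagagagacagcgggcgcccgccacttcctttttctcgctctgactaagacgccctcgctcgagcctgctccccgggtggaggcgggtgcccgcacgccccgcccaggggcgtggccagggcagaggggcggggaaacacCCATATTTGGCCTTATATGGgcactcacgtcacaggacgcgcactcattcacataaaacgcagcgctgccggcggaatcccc
For FISP-12 (Ccn2, chr1:22624615-22624864, minus strand) and Cyr61 (Ccn1, chr2:237225690-237225939, minus strand), both lower in ROSEA25, the capitals mark GGAATG, the element bound by TEAD factors, on either strand.
Ccn2: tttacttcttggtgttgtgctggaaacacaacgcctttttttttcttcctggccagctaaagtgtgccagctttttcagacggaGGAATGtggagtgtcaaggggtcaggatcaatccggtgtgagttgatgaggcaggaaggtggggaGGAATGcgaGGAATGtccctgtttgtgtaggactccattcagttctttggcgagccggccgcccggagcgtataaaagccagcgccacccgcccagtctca
Ccn1: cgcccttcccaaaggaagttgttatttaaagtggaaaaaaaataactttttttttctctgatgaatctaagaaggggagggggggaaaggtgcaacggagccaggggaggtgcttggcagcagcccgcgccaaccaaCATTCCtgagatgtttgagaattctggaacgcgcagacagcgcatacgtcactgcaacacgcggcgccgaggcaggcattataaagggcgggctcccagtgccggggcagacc
Ccn2 held 3 copies at positions -166, -101 and -92, and Ccn1 held 1 copy on the opposite strand, CATTCC, at position -113. The 5 genes were picked after their values were seen.

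Both strands of the 250-base window were searched for the 3 motifs, and each of the 5 windows printed holds only the motif marked in it. Of the 293 named features 190 were matched to a RefSeq gene, and 157 distinct genes had a promoter in the table. The AP-1 motif was present in 4 of 21 promoters of genes higher in ROSEA25 (19%), in 1 of 24 of genes lower (4.17%) and in 9 of 112 of genes in between (8.04%). Among all 27457 promoters of the table the share was 6.99%. The 4 higher genes with it were MMP10, MMP-3, GADD153 and Mob-1. The 1 lower gene was T16, and the genes in between included MMP1. A CArG box was present in 1 of 21 higher, 2 of 24 lower and 6 of 112 other promoters, against 1.62% of all promoters. GGAATG was present in 2 of 21, 5 of 24 and 12 of 112, against 12.9% of all promoters. A match of letters is a description and not a measured binding site.

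The array holds 1760 spots in 16 subgrids, with 37 blank spots and 325 beta actin spots. The brightest spot had a mean signal of 49825 intensity units, and saturation of single pixels was not tested. The quantification software marked 47 spots as poor, and these were left out. A feature counted as above blank when its net signal, the mean signal minus local background, passed the blank spots' mean by 3 of their SDs (142 in Cy5 and 173 in Cy3). Of the 311 features 288 were above blank in both channels, 18 in the ROSE199 channel only, 5 in neither and 0 in the siEGFP channel only. The median SD over the spots of a feature was 0.064 on the log2 scale, and 16 features had a spot SD over 0.5. For 310 of the 311 features all spots lie in 1 subgrid, so the spot SD covers spotting and scanning within that part of the array and no culture or labelling error. Beta actin, the exception, had subgrid means between -0.11 and 0.21. The log2 ratios had an SD over features of 1.34 here, against 0.38 to 1.14 on the other 5 arrays. No dye swap was made of this sample, and a dye effect cannot be told apart from its values. On the siHMGA2 pair, which was dye-swapped, the median gap between the arrays was 0.27 and 21 of 311 features differed by more than 1.

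All ratios below are log2 of siEGFP over ROSE199 after background correction and centring, so a positive value is higher in ROSEA25. Net signals are given before centring and do not divide exactly to the ratio. A feature is called higher or lower when its ratio is at least 1 in size, which is a doubling. Of all 311 features 33 were higher (percent called 10.6) and 48 were lower (percent called 15.4), while 230 stayed under that size and the median was 0.003. These shares are the background for every list count below, and a small list with 1 call is near them. Among the named features 33 were higher, 46 were lower and 214 were in between. The differences were larger on the lower side: 14 lower features reached a size of 3 against 5 higher ones, and 5 reached a size of 4 against 1. Every spot had the sign of the mean in 33 of 33 higher and 48 of 48 lower features, and every spot was at least 1 in size in 29 and 42 of them. The share of higher among the called features was 40.7%. It was 21.6% when ratios were centred on the beta actin spots, which moved the median of all features by -0.60. Ratios rose with brightness before centring, from a median of -0.43 in the dimmest 104 features to 0.45 in the brightest 104, and the curve brought these to 0.001 and 0.048. After it, 4 of the 104 dimmest features were higher and 9 lower, against 15 and 19 of the 104 brightest.

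**Figure D1:**
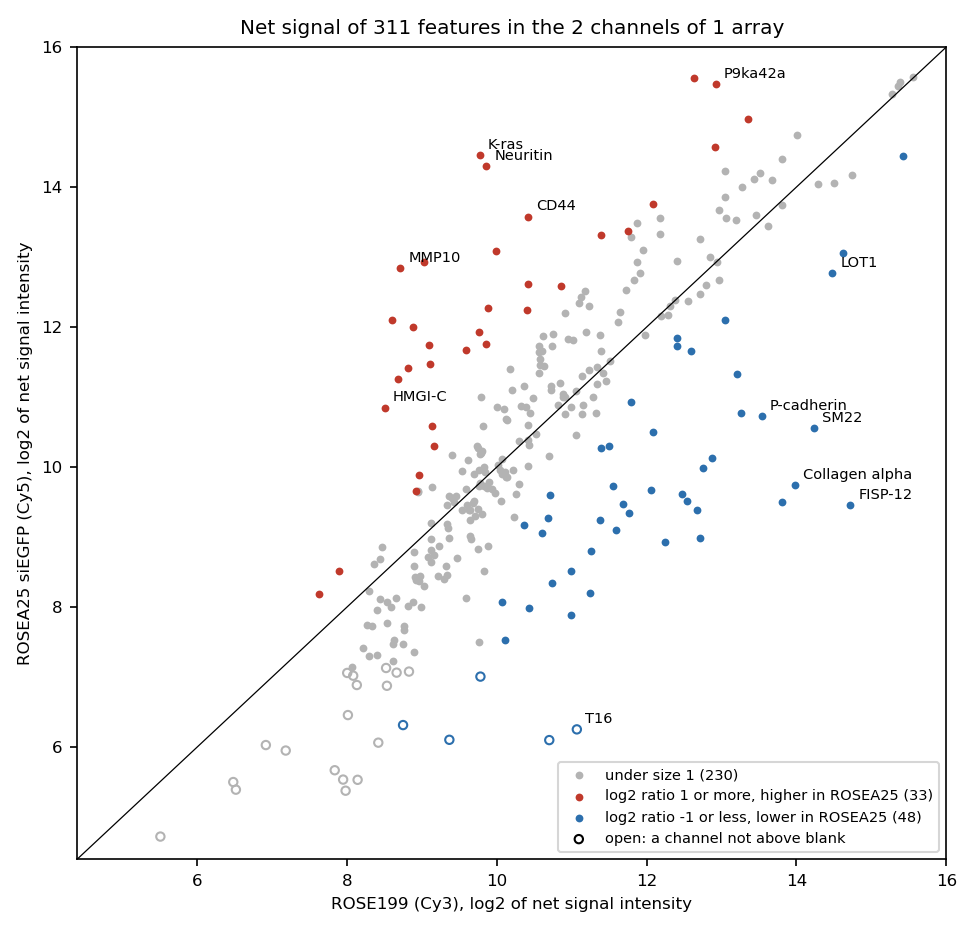
Net signal of each of the 311 features in the siEGFP channel (vertical axis, log2 of intensity units) against the ROSE199 channel (horizontal axis, log2), with 33 higher features in red, 48 lower in blue and 230 others in grey. Open circles have a channel not above blank, the diagonal marks equal net signal, and the blue points reach farther from it than the red ones.

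K-ras itself headed the ranking. Its net signal was 22509 in the siEGFP channel and 874 in the ROSE199 channel, with a log2 ratio of 4.25 (spot SD 0.19, 4 spots, 19.1-fold). Its 4 spots lay between 4.12 and 4.54, and the ROSEA25 cells given siRNA against HMGA2 read 4.82 and 4.60 on their 2 arrays. K-ras was thus high on all 3 ROSEA25 arrays, and K-RAS is the RAS gene named in the study's title. The related genes Ha-ras (0.065) and Nras-rat (-0.54) were not called. The siHMGA2 arrays share the ROSE199 reference with this array, so their values are placed beside it and are not independent of it. HMGI-C, the array's name for the chromatin protein HMGA2, had net signals of 1846 and 363 and a ratio of 2.40 (spot SD 0.029, 4 spots). Its siHMGA2 values were 1.20 and 1.59.

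Of 22 features of the RAS-MAPK pathway and its early response and feedback genes, 8 were higher, 0 were lower and the median was 0.56. The members, like those of the other lists, were chosen with earlier results of these data known. Mkp2, Mkp4 and Fra2, given below, are outside the list and were not called. The count is therefore a description of the chosen members and no test of the pathway. The lower count was 3 under beta actin centring and 2 in the deposited ratios, with 8 and 11 higher. On the ligand side, TGF alpha, which activates the EGF receptor, had net signals of 2456 and 412 and a ratio of 2.53 (spot SD 0.11, 5 spots). HB-EFG, the array's spelling of the heparin-binding EGF-like ligand, read 0.50. The EGF receptor itself was not above blank in the siEGFP channel (net 118 against 280.4), so no fold is given for it. Among the kinases, MAP kinase kinase 1, which phosphorylates ERK, lay just under the threshold at 0.99.

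The pathway's feedback inhibitors were mixed. Cpg21, the nuclear ERK phosphatase Dusp5 whose promoter is printed above, had net signals of 4084 and 471 and a ratio of 2.84 (spot SD 0.064, 4 spots). On the siHMGA2 arrays Cpg21 was at 1.72 and 0.75. Sprouty2, an inhibitor of receptor signalling to RAS, was higher at 1.54 (spot SD 0.044). The other MAPK phosphatases were not called: Mkp4 read 0.97, Mkp3 0.62, Mkp2 -0.11 and Mkp1 -0.93. The 5 phosphatases thus spanned a wide range, with 1 higher, 0 lower and a median of 0.62.

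Among nuclear targets, CyclinD1, which drives entry into the cell cycle, had net signals of 4943 and 943 and a ratio of 1.95 (spot SD 0.051). Of 5 AP-1 factors 1 was higher, 0 were lower and the median was 0.46. The called member was Fra-1 (1.23, spot SD 0.26), while JunB read 0.70, JUN 0.46, Fra2 -0.65 and JunD -0.68. The Jun and Fos relatives therefore did not move as 1 block. TDAG51, a pleckstrin-homology protein, was higher at 1.31, while c-myc (-0.50) and Egr-1 (-0.061) were not called. Of 4 ID factors, which block basic helix-loop-helix proteins, ID2 was higher at 1.20, ID3 and ID1 lay just below at 0.96 and 0.79, and ID4 read -0.54. Of 6 ETS factors 1 was lower: the repressor TEL (Etv6) had net signals of 237 and 2025 and a ratio of -2.72 (spot SD 0.068, 4 spots). Its siHMGA2 values were -0.94 and -2.01. The other 5 ETS factors lay between -0.15 and 0.45. These small families, like the phosphatases, were grouped after their values were seen.

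**Figure D2:**
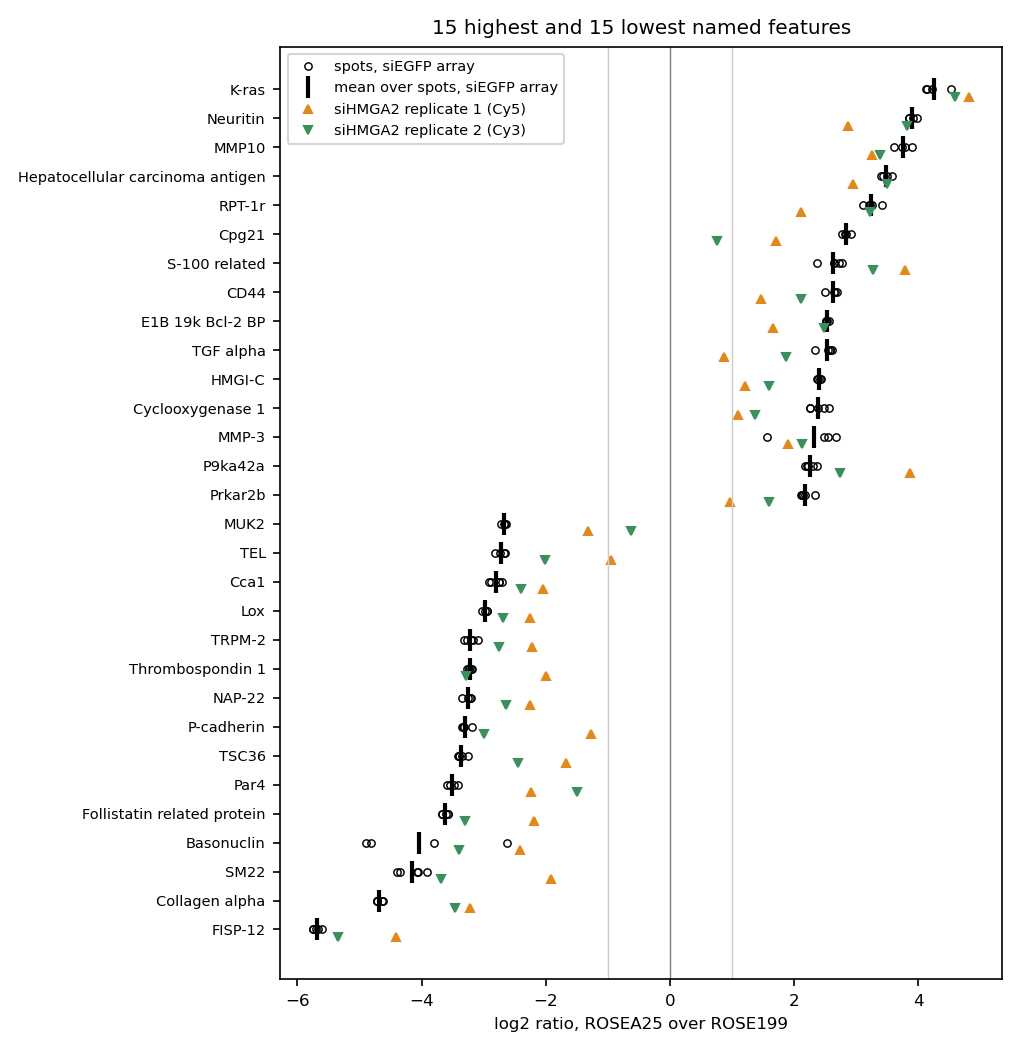
Log2 ratio over ROSE199 (horizontal axis) of the 15 highest and 15 lowest named features above blank in both channels. Circles are single spots of the siEGFP array and bars their means, and triangles are the siHMGA2 arrays in Cy5 and Cy3; the spots of Basonuclin (spot SD 1.06) and MMP-3 (spot SD 0.51) scatter more widely than the others.

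Matrix-degrading enzymes were called on the higher side, with 3 of 8 proteases and inhibitors higher, 0 lower and a median of 0.25. The median turned to -0.11 under median centring and to -0.70 under beta actin centring, where 1 and 2 members were lower. MMP10 (stromelysin-2) had net signals of 7356 and 418 and a ratio of 3.76 (spot SD 0.12, 4 spots), which is 13.5-fold. MMP-3 (stromelysin-1) had net signals of 2723 and 451 and a ratio of 2.32 (spot SD 0.51, spots from 1.56 to 2.67). Both are the AP-1 motif genes printed above, and the siHMGA2 arrays read 3.25 and 3.39 for MMP10 and 1.90 and 2.13 for MMP-3. Cathepsin D, a lysosomal protease, was higher at 1.29 with net signals of 24458 and 7721. The collagenase MMP1, whose promoter also holds the AP-1 motif, was not called at 0.23. The inhibitor TIMP-2 read -0.60, the plasminogen activator UPA -0.30 and its inhibitor PAI1 0.26. GelatinaseA was not above blank in ROSEA25 (net 135 against 454). Its ratio was -0.70 with a spot SD of 0.48, so its bound of 1.57-fold lower is not firm.

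The brightest of the higher features were calcium-binding S100 proteins. S-100 related had net signals of 48386 and 6346 and a ratio of 2.63 (spot SD 0.16, 5 spots). P9ka42a, the metastasis-associated protein S100A4, had net signals of 45283 and 7764 and a ratio of 2.26 (spot SD 0.076, 5 spots). Both read higher still on the siHMGA2 arrays, 3.79 and 3.27 for the former and 3.87 and 2.74 for the latter. ROSE199 with empty vector also read higher, at 1.08 and 1.09 in turn, while ROSE199 with HMGA2 lay between -0.086 and -0.028. Ahnak, a large scaffold protein that binds S100 partners, read -0.70, so the list of 3 had 2 higher, 0 lower and a median of 2.26.

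Among 6 adhesion and junction features 1 was higher and 1 was lower, against 10.6% and 15.4% of all features. The median was -0.23. It was 0.39 over the features above blank in both channels, and median centring gave 2 higher, 3 lower and a median of -0.77. CD44, the hyaluronan receptor, had net signals of 12210.3 and 1369 and a ratio of 2.63 (spot SD 0.085, 4 spots). Coxsackie and adenovirus receptor homolog, a tight junction protein, was lower at -1.71, but its spots spread from -2.22 to -0.44 (SD 0.85). CD44 thus stood alone on the higher side of this list, and it is counted in the RAS-MAPK list too. Syndecan-1 read 0.91 (spot SD 0.70). The gap junction protein Cx43 was not above blank in ROSEA25 (net 140.0 against 368). Its ratio was -0.33 with a spot SD of 0.54, so no lower limit of its fold is given.

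The prostaglandin enzymes were split. Cyclooxygenase 1, the constitutive form, had net signals of 3439.8 and 549 and a ratio of 2.39 (spot SD 0.13, 5 spots). Cox2, the inducible form, had net signals of 576 and 1319 and a ratio of -1.05 (spot SD 0.081). The authors' deposited table gives 2.32 for Cox2 on this array, so its direction differs between the spot intensities and that table. PS-PLA1, a phospholipase, was higher at 1.43, but its spots spread from 0.99 to 2.55 and the deposited value is 0.24. The list of 3 had 2 higher, 1 lower and a median of 1.43. Of 4 cyclic AMP and protein kinase A features 1 was higher, against 10.6% of all features. It was Prkar2b, a regulatory subunit of the kinase, with net signals of 2843 and 550.5 and a ratio of 2.18 (spot SD 0.089). AKAP-KL and the anchoring protein SSECKS read 0.30 and 0.20, the list's median was 0.41, and beta actin centring turned it to -0.54.

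Genes named from neurons lay at both ends. Neuritin, a membrane-anchored protein of growing neurites, was the second highest feature, with net signals of 20223 and 929.8 and a ratio of 3.90 (spot SD 0.063, 4 spots). NAP-22 (Basp1), a membrane protein of axon terminals, had net signals of 1011 and 6885 and a ratio of -3.26 (spot SD 0.066). Sortilin, a sorting receptor, was lower at -2.39, and Peripherin, an intermediate filament protein, at -1.44. With Cpg21, which is also a MAPK phosphatase, 2 of 5 were higher and 3 lower, with a median of -1.44. On the siHMGA2 arrays Sortilin read -0.38 and -2.26, a gap between the dyes larger than most.

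Of 4 chemokine and interferon features 2 were higher and 1 was lower, and the median of 0.87 turned to -0.15 under beta actin centring and to -0.30 in the deposited ratios. RPT-1r had net signals of 4385 and 389.5 and a ratio of 3.24 (spot SD 0.11, 5 spots). For RPT-1r ROSE199 with HMGA2 read 1.31 and 1.46, and ROSE199 with empty vector 0.12. Mob-1, the chemokine Cxcl10, was higher at 1.13 with net signals of 943 and 497. Interferon induced gene was lower at -1.41, against -4.84 in the authors' deposited table. MHC was above blank in neither channel.

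The lowest features were matrix and secreted genes. Of 9 extracellular matrix features 5 were lower, 1 was higher and the median was -2.60. Collagen alpha, named as a collagen chain, had net signals of 858 and 16169 and a ratio of -4.68 (spot SD 0.049, 5 spots), which is 25.7-fold lower. Lox, the enzyme that cross-links collagen, had net signals of 1753 and 9843 and a ratio of -2.97 (spot SD 0.038). Collagen and its cross-linking enzyme were thus both lower, while LOXRP, named as a lysyl oxidase related protein, was higher at 1.48. Thrombospondin 1, an adhesive glycoprotein, had net signals of 1125 and 7481 and a ratio of -3.23 (spot SD 0.033). ROSE199 with empty vector also read lower for Collagen alpha (-1.40), Lox (-1.09) and Thrombospondin 1 (-1.01). ROSE199 with HMGA2 read -2.95 and -2.78 for Collagen alpha, -0.57 and -0.75 for Lox, and -1.17 and -2.03 for Thrombospondin 1. Agrin, a heparan sulfate proteoglycan, read -2.60 here but -1.46 and -0.47 on the siHMGA2 arrays. T16, which RefSeq lists under the fibulin gene Efemp1, was not above blank in ROSEA25 (net 76.3 against 2147) and was at least 8.33-fold lower. Fibrillin-1 was likewise not above blank in ROSEA25 (net 134 against 405) and read -0.43 (spot SD 0.13). The abundant proteins Osteonectin (-0.80) and Fibronectin (-0.71) did not reach the threshold, with net signals of 18414 against 27288 and 17102 against 23232.

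FISP-12, the connective tissue growth factor Ccn2 and the lowest of all features, had net signals of 704 and 26999 and a ratio of -5.69 (spot SD 0.062, 5 spots), which is 51.6-fold lower. Its 5 spots lay between -5.75 and -5.60, and the siHMGA2 arrays read -4.42 and -5.34. In ROSE199 it was among the brighter probes, and in ROSEA25 it was dim but still above blank. Cyr61, the family member Ccn1, had net signals of 652 and 3473 and a ratio of -2.62 (spot SD 0.042). Its siHMGA2 values were -0.38 in Cy5 and -2.02 in Cy3. Follistatin related protein and TSC36, names that both map to the secreted glycoprotein Fstl1, read -3.62 (spot SD 0.049) and -3.36 (spot SD 0.067). These 2 features therefore gave similar values for what may be 1 gene. TGFBT2R, the type II TGF-beta receptor, was lower at -2.11, while the ligand TGF beta read -0.018. IGFPBP, named as an IGF binding protein, was not above blank in ROSEA25 (net 129 against 879.9) and was at least 3.23-fold lower. PDGF (0.87), FGF-2 (0.43), IGF-2 (-0.39) and VEGF (0.36) were not called. Of these 12 secreted growth regulators and receptors 6 were lower, 0 were higher and the median was -1.13.

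Epithelial genes were called only on the lower side, 5 of 6 with 0 higher and a median of -2.09. P-cadherin, an adhesion molecule of epithelial cells, had net signals of 1691 and 11861 and a ratio of -3.29 (spot SD 0.072, 4 spots). E-cadherin, the main adherens junction molecule of epithelia, had net signals of 366 and 2026 and a ratio of -2.27 (spot SD 0.11). Both cadherins were lower on the siHMGA2 arrays too, but by less in Cy5 (-1.26 and -0.96) than in Cy3 (-3.0 and -1.88). Basonuclin, an epithelial zinc finger factor, read -4.03, with net signals of 505 and 6730.4 and spots from -4.90 to -2.63. Megakaryocyte potenciating factor, which is mesothelin, the surface protein of mesothelial cells, read -1.91, and WT1, a transcription factor of the mesothelial lineage, read -1.36. DOC-2, an adaptor protein of ovarian epithelium, stayed under the threshold at -0.75.

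Markers of cell types were looked at, but they cannot settle the label of the cells. All 5 ovarian surface epithelial markers on the array (WT1, mesothelin, P-cadherin, E-cadherin and DOC-2) were above blank in both channels. So were 288 of all 311 features, so this count does not set the cells apart. The summed net signals of the 5 were 13587 in siEGFP and 43490 in ROSE199, of which mesothelin alone gave 8513 and 25148. Of 5 mesenchymal markers (Collagen alpha, Thy-1, P9ka42a, PDGF receptor and Fibronectin) 3 were above blank in siEGFP and 4 in ROSE199. Their sums were 63354 and 47533, and P9ka42a alone gave 45283 of the siEGFP sum. In these, Collagen alpha was lower and P9ka42a was higher, so the list did not go 1 way. The 2 smooth muscle markers on the array (SM22 and TPM2) were above blank in both channels, and both were lower. Their sums were 23855 in siEGFP and 62924 in ROSE199, larger than the epithelial sums. Of the leukocyte markers listed for this check the array holds only Mob-1, a chemokine and not a marker of leukocytes alone. Of the endothelial markers listed it holds none. The part of other cells in the results was not tested.

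Contractile genes contributed the third lowest of the named features. SM22 (transgelin), an actin-binding protein of smooth muscle, had net signals of 1508 and 19212 and a ratio of -4.16 (spot SD 0.20, 5 spots). The siHMGA2 arrays read -1.91 in Cy5 and -3.69 in Cy3. ROSE199 with HMGA2 read -1.60 and -1.42, and ROSE199 with empty vector -0.44. TPM2, a tropomyosin that stayed bright in both cells (net 22347 and 43712), was lower at -1.11, and Ril (Pdlim4), an actin-associated protein, at -1.49. Cav-1, the coat protein of caveolae, was higher at 1.12, with the cofactor FHL2 just under the threshold at 0.99. Caldesmon read 0.083. With beta actin among them, 3 of 8 actin-binding and contractile features were lower, 1 was higher and the median was -0.17. That median was 0.05 over features above blank in both channels and -1.14, with 4 lower, under beta actin centring. Srf, the serum response factor that binds CArG boxes, was not above blank in ROSEA25 (net 79.6 against 430.1) and was at least 1.46-fold lower. Over all settings its ratio lay between -2.44 and -0.37, so this bound holds only for the setting reported here.

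**Figure D3:**
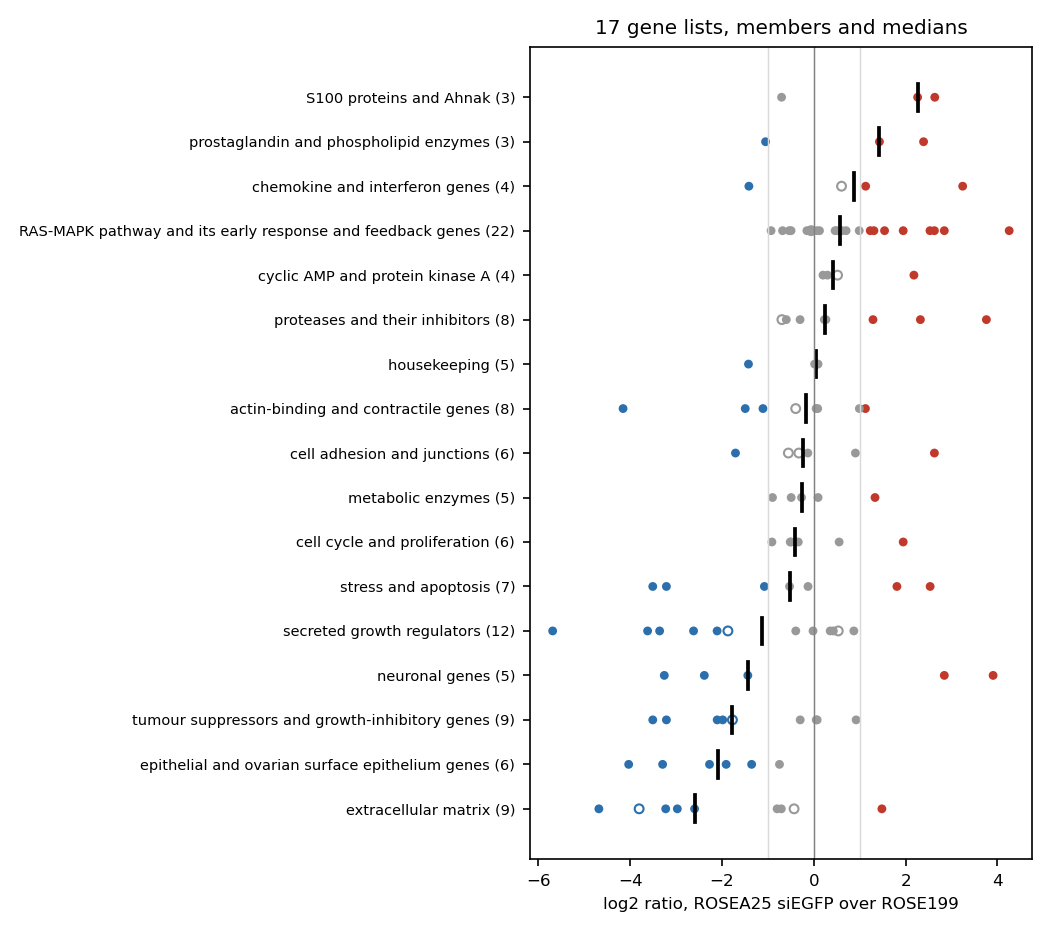
Log2 ratio of siEGFP over ROSE199 (horizontal axis) for every member of 17 gene lists (list names with the number of members), with bars at the list medians. Red points are higher, blue points lower, grey points under size 1 and open points not above blank in a channel; extracellular matrix (median -2.60) and epithelial genes (median -2.09) lie farthest to the left.

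Growth-inhibitory genes were lower in 5 of 9 cases, with 0 higher and a median of -1.77. Par4, a pro-apoptotic protein, had net signals of 486 and 4851 and a ratio of -3.51 (spot SD 0.08, 4 spots). TRPM-2, an old name of the secreted chaperone clusterin, had net signals of 781 and 5686 and a ratio of -3.21 (spot SD 0.084). LOT1 (Plagl1), a zinc finger protein lost on transformation of rat ovarian cells, was lower at -2.11 but still bright, at 6962 against 22826. H-rev107, first found as a gene reduced in HRAS-transformed rat fibroblasts, was lower at -1.98. P53 binding protein was not above blank in ROSEA25 (net 68.8 against 660.1) and was at least 2.23-fold lower. The other 4 members of the list were not called: RB read 0.92, NF2 -0.30, MEN1 0.072 and NF1 0.052. P53 itself, which was not in the list, read -0.73. Also outside the list and not called were BARD1 (0.84), TSG101 (0.29), Hrev107-2 (0.26) and P15 ink4b (-0.0002). The share of lower features thus depends on the choice of members, which was made with earlier results known.

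Stress and apoptosis features were split, 2 higher and 3 lower of 7, with a median of -0.53. Of the 3 lower, Par4 and TRPM-2 are the same features already counted in the growth-inhibitory list. E1B 19k Bcl-2 BP (Bnip3), a mitochondrial death and mitophagy protein, had net signals of 8663 and 1017 and a ratio of 2.53 (spot SD 0.021). GADD153 (CHOP), a transcription factor of the endoplasmic reticulum stress response, was higher at 1.81. The chaperone ORP150, of the same compartment, read -1.08, but its spots spread from -1.67 to -0.088 and the authors' deposited table gives 1.43. Its direction is therefore unsettled. BCL-2 (-0.13) and P5 protein (-0.53) were not called.

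Of 6 cell cycle features 1 was higher and 0 were lower, against 10.6% and 15.4% of all features. The median of -0.42 turned to 0.08 under median centring and to 0.26 in the deposited ratios. N-myc read -0.91, the proliferation marker Ki-67 0.55, and the CDK inhibitors P16 (ink4a) and P27 kip -0.51 and -0.34. CyclinD1 was thus the 1 called member, and it is counted in the RAS-MAPK list too.

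Of 5 metabolic enzymes 1 was higher and 0 were lower, against 10.6% and 15.4% of all features. The median of -0.27 turned to 0.19 under median centring and to 0.40 in the deposited ratios. Balb aldose reductase related, named as a relative of the sugar-reducing enzyme, was bright and higher at 1.33 (net 32257 and 10476). FAH, the last enzyme of tyrosine breakdown, read -0.90, ODC1, which starts polyamine synthesis, -0.49 and Antiquitin -0.27.

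Of 5 housekeeping features 4 lay close to 0 and 1 was lower. GAPDH had net signals of 46546 and 42857 and a ratio of 0.092 (spot SD 0.031), S9 44694 and 41749 and a ratio of 0.06, and Alpha tubulin 48681 and 48114 and a ratio of 0.016. Beta actin averaged 0.05 over 324 spots (SD 0.16), with net signals of 7866 and 5423. HPRT, a purine salvage enzyme, had net signals of 3243 and 6146 and a ratio of -1.42 (spot SD 0.035). It did not behave like the other 4, and its ratio lay between -1.49 and -0.58 over the alternative settings. Under beta actin centring the other 3 bright features read from -0.50 to -0.40.

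Called features outside the lists were 20, among them HMGI-C. On the higher side these included Hepatocellular carcinoma antigen, with net signals of 7762 and 521 and a ratio of 3.48 (spot SD 0.078, 4 spots). For this feature ROSE199 with HMGA2 read 1.11 and 1.59, and ROSE199 with empty vector -0.20. BCSC-1 read 1.77, Trancript associated 1.65, PKC-zeta IP 1.41, NPRAP 1.26 and Estrogene induced gene 1.21. MoatB, the transporter Abcc4, was the lowest of the higher features at 1.005. On the lower side Cca1, a RefSeq synonym of the sphingomyelinase gene Smpd3, had net signals of 294 and 2431 and a ratio of -2.81 (spot SD 0.093). MUK2 had net signals of 819.8 and 4251 and a ratio of -2.67 (spot SD 0.037), with -1.32 and -0.62 on the siHMGA2 arrays. Frat3 was not above blank in ROSEA25 (net 68.6 against 1664) and was at least 6.25-fold lower. ETF read -2.44, Steroid sensitive gene -2.37, HTS1 -2.24 and the RNA-editing enzyme Red-1 -2.06. Protein tyrosine phosphatase delta read -1.99 with a spot SD of 0.99, PRP -1.45 and ZFDCP -1.18. Of the 18 unnamed clones 2 were lower, ESTAA673854 at -4.75 and ESTAA620224 at -1.33, and 0 were higher. Where a name was not matched to 1 gene, any role given is read from the array name.

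The threshold separates features that differ little. Just inside it lay MoatB (1.005), Cox2 (-1.05), Single strand DNA binding protein (-1.08) and ORP150 (-1.08). Just outside lay FHL2 (0.99), MAP kinase kinase 1 (0.99), Mkp4 (0.97) and ID3 (0.96). The receptor kinase RET, uncalled and dim in ROSEA25, was at least 1.16-fold lower (net 66.9 against 342). All such bounds are open to dye bias and hold only for the setting reported here.

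The authors' deposited table of log2 ratios for the same array correlated with the values above at 0.841 across the 311 features, which are not independent replicates. Of the called features 2 had the other sign there, Cox2 and ORP150. Its values for the ends of the ranking were 4.28 for K-ras, 4.12 for Neuritin, -3.51 for Collagen alpha and -4.43 for FISP-12. These 4 features have the same direction in both sources, and the size of both lower ones is smaller in the deposited table.

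**Figure D4:**
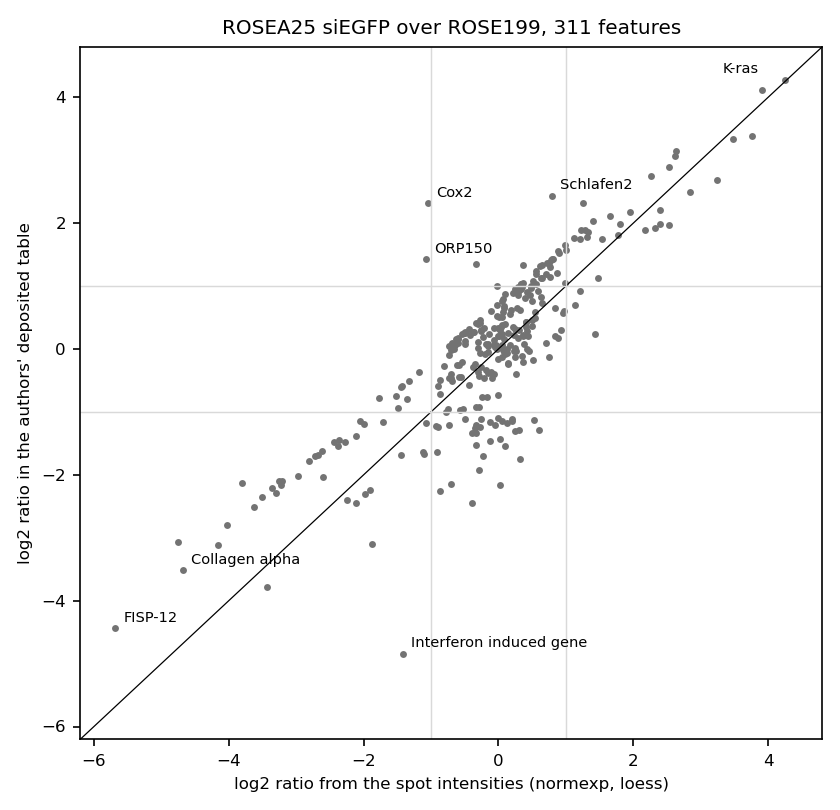
Log2 ratio of siEGFP over ROSE199 in the authors' deposited table (vertical axis) against the ratio computed from the spot intensities (horizontal axis) for 311 features, with grey lines at size 1 and the diagonal marking equal values. Cox2 and ORP150 lie at opposite signs on the 2 axes, and Interferon induced gene reads -4.84 in the deposited table against -1.41.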

How the data were processed

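RNA of ROSEA25 cells with siEGFP (Cy5) and of untreated ROSE199 cells (Cy3) was hybridised to 1 spotted array. The quantification file (header version 5) gives, per the file headers, a mean signal intensity and a median local background intensity for every spot and dye. The authors also deposited a table of log2 ratios for each array. Which way its ratios run was taken from setting them against the spot intensities, its median on this array was 0.087, and its centring and background correction are not given in the sources used here.

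The normexp method (offset 50) served for background correction, and a loess curve against intensity centred the ratios (span 0.3, 4 iterations; blank and beta actin spots without weight) with R 4.3.3 and limma 3.58.1. Poor spots were left out, and spots of a feature were averaged. No dye term entered the main values. Tables and figures were made with Python 3.11.15. On simulated spots every one of 80 changed features and 0 of 231 unchanged ones was called. Simulated spots come from no RNA sample, so these counts check the computation only. They give no error rate for the calls on this array, in particular for features near the threshold. A bound is the ROSE199 signal over the higher of the feature's own siEGFP signal and the lowest siEGFP signal among features above blank, after centring. For Cx43 and Fibrillin-1 this equals the plain ratio, so only the ratio is given. The number of arrays limits the precision.

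Described in full were the 15 highest and 15 lowest named features above blank in both channels, features with a bound, K-ras, HMGI-C and housekeeping features. Other called features and up to 4 uncalled members of each list were named with their ratio, apart from a few items that are not reported here. The members and gene lists were chosen with earlier results of these data known. The alternatives were other background corrections, other centrings (median, housekeeping, beta actin), a dye term over 6 arrays, the median over spots, poor spots kept, features above blank only, and the deposited ratios.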

Additional observations from a re-analysis of the deposited data

Results flagged for a closer look

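Some features had the opposite sign in other cells set against the same ROSE199 reference, in every array of each group and by at least 0.5 there. The siEGFP value itself had to be at least 1 in size beside ROSE199 with HMGA2, but only 0.5 beside siHMGA2. FAH, which was not called, is listed through the looser rule. These differences were not tested, since the siEGFP side is 1 RNA sample on 1 array. FAH read -0.90 with siEGFP but 0.82 and 0.77 on the ROSEA25 siHMGA2 arrays. The other features differed from blasticidin-selected ROSE199 cells carrying HMGA2, whose 2 arrays are given in turn. Balb aldose reductase related was 1.33 with siEGFP against -0.93 and -0.92, and Fra-1 was 1.23 against -0.72 and -0.77. The remaining features were lower in ROSEA25 and higher in ROSE199 with HMGA2. The epithelial factor Basonuclin was -4.03 against 0.75 and 0.54, and H-rev107 was -1.98 against 1.35 and 1.31. The secreted IGFPBP was -1.87 against 2.93 and 2.99, and P53 binding protein was -1.77 against 1.05 and 0.58; both were not above blank with siEGFP. Interferon induced gene was -1.41 against 0.93 and 0.65. Of the neuronal genes, Peripherin was -1.44 against 2.41 and 2.28, and Sortilin was -2.39 against 1.08 and 1.01. Ril was -1.49 against 0.97 and 0.84. The ETS factor TEL had the widest gap of these, -2.72 against 3.16 and 3.23.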

How the results depend on the processing

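Of 33 higher features 27 kept that call under every alternative computed on all features, and of 48 lower features 33 did. The count of higher features was 51 under median centring, 50 under housekeeping centring and 61 in the deposited ratios, and the count of lower features was 98 under beta actin centring; the cause was not tested. In the other settings the counts stayed between 27 and 37 higher and between 40 and 72 lower. The called features that changed sign were Cox2, at 2.32, and ORP150, at 1.43, both in the deposited ratios; the cause was not tested. The 6 higher features that lost their call somewhere were Estrogene induced gene, LOXRP, MoatB, Mob-1, NPRAP and PS-PLA1. The lower ones were Cox2, HPRT, IGFPBP, Interferon induced gene, ORP150, P53 binding protein, PRP and Ril. Rnd3-Rho8, Single strand DNA binding protein, Srf, TPM2, WT1, ZFDCP and ESTAA620224 lost it too. Without background correction 4 epithelial, 2 contractile and 4 growth-inhibitory features were lower. Each called or listed feature was also paired with each alternative. Of these paired values 902 lay less than 1 spot SD from the main value, 827 lay farther away and 2 had the other sign. The setting of features above blank only repeats the main value, so its pairs all fall among the 902. No paired analysis was possible because each side is 1 RNA sample on 1 array, and for the same reason no replicate could be left out. Signal over background limits the 23 features not above blank in the siEGFP channel.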

Other observations

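The families of signalling and growth genes below were grouped after their values were seen, and 0 of their members were called in the setting reported here. Of 8 GTPase-activating proteins and Ras-like GTPases 0 were higher and 0 lower, with a median of 0.19. Median centring gave 2 higher, 1 lower and a median of 0.67, and the deposited ratios gave 4 higher and a median of 0.996. They ranged up to Krev1 at 0.77 and RASGAP at 0.63, and Rsu-1 was not above blank in ROSEA25.

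Of 10 DNA replication, chromosome and mitosis genes 0 were called in either direction, with a median of 0.30 that turned to -0.07 under beta actin centring, while median centring and the deposited ratios each gave 2 higher. DNA polymerase epsilon read 0.58, TOPO II 0.51 and CAP-C 0.065. The maintenance methyltransferase Dnmt1 read 0.29, while Dnmt3a was above blank in neither channel and Dnmt3b in ROSE199 only. Of the myogenic factors Myogenin read 0.76 and MyoD 0.20, and MRF4 was not above blank in ROSEA25.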
